A study of Mus musculus with 25 samples.

Results

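Untreated tumors of 2 mouse mammary tumor models, PyMT-M and 2208L, were compared gene by gene. The comparison used the 4 PyMT-M and the 3 2208L libraries whose labels name vehicle as the treatment, 7 of the 25 libraries of a study of the drug H3B-8800, a small molecule that binds the SF3B complex of the spliceosome. Both models are labelled as triple-negative breast cancer from genetically engineered mice and as responders to the drug, and both had been grown after orthotopic transplantation into female mice that were 4 to 5 weeks old at transplant. PyMT-M tumors grew in C57BL/6 mice and 2208L tumors in Balb/c mice, so the model and the host strain cannot be told apart in this comparison. The vehicle was given daily until collection, and, per the series description, every replicate is a tumor of its own. The labels do not name the transgene, the Trp53 genotype or the number of founder tumors of either model, and each model is a single transplanted line, so the replicates measure the spread of that line and not of a tumor class. RNA came from whole tumors with their host cells, was selected for poly(A) tails and was sequenced in stranded libraries. As further material, 4 PyMT-M and 3 2208L libraries from H3B-8800-treated tumors gave the same comparison of models in other tumors, and AT3 (C57BL/6, 5 libraries) and T11 (Balb/c, 6 libraries) gave another pair of models with the same strain contrast.

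Mammary epithelium has an inner luminal layer, which makes milk under the control of prolactin, STAT5 and the transcription factors GATA3 and ELF5, and an outer basal or myoepithelial layer marked by keratins 5 and 14 and p63. The tumor suppressor p53 switches on genes of arrest and cell death such as Cdkn1a and, through that arrest, lowers the genes of DNA replication and mitosis. Mammary tumors also recruit myeloid cells: neutrophils follow G-CSF and the CXCR2 ligands, and macrophages follow CSF1 and CCL2.

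Expression was measured as reads spliced across the introns of a gene, given as CPM, the count scaled to the spliced total of the library. The PyMT-M libraries held 11764084 to 15113764 spliced reads and the 2208L libraries 9820825 to 11038943. A gene was called when the edgeR quasi-likelihood test gave a Benjamini-Hochberg adjusted p under 0.05 over the 13001 genes tested. The fit held all 25 libraries, so those outside the 7 helped to set the expression filter and the estimate of the spread. Differences are log2 ratios of PyMT-M over 2208L ± 1 standard error, so a positive value means higher in PyMT-M. Of all genes, 3054 (23.5%) were higher in PyMT-M and 2862 (22%) were lower, 45.5% in all, with a median log2 difference of 0.00. Against a log2 difference of at least 1, 1063 were higher and 782 lower. These shares are the background for every gene list, and a list near them shows no more than the transcriptome as a whole. The share of all genes without overlap between the groups was not counted, so non-overlap of a named gene is a description only.

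Some libraries stood apart from the others of their group. PyMT-M replicate 3 drew 11.6% of its spliced reads from Mup, Scgb and Dcpp genes, against 1.02%, 2.10% and 2.25% in the other PyMT-M libraries. 2208L replicate 1 held skeletal muscle transcripts, with a summed level of 5142 CPM over 16 muscle markers against 45.3 and 12.9 CPM in the other 2208L libraries and at most 17.7 CPM in PyMT-M. 2208L replicate 2 was the highest of the 7 libraries in fibroblast and macrophage markers, with 18421 CPM summed over 18 fibroblast markers and 7809 CPM over 24 macrophage markers. Several values that rest on one of these libraries are marked where they occur.

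**Figure D1:**
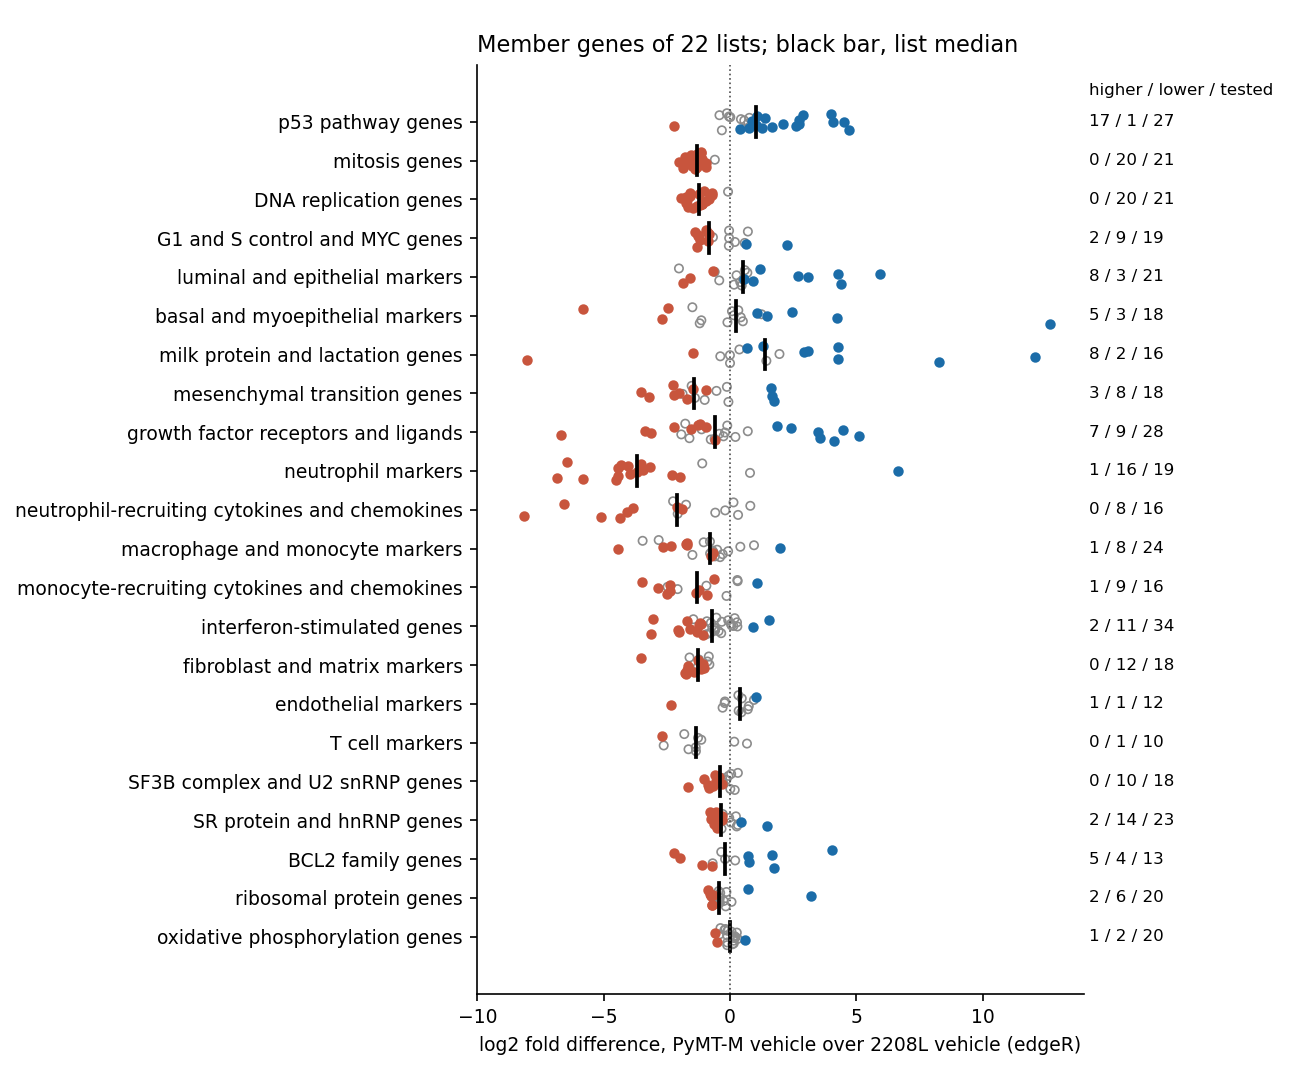
Each point is 1 gene of a list, placed by its log2 difference of PyMT-M vehicle over 2208L vehicle. Filled points passed the edgeR test (blue higher, red lower), open points did not, and black bars are list medians. The p53 genes lie mostly to the right, and the mitosis, replication and neutrophil genes mostly to the left. Fitted values of genes without reads in one group (Krt5, Wap, Csn2 and others) depend on the prior count and are not sizes.

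Both models carried an epithelial transcriptome. Epcam, an adhesion protein of epithelial cells, stood at 1527 to 1951 CPM in PyMT-M and 1072 to 1441 CPM in 2208L, while the vehicle libraries of AT3 and T11 averaged 0.665 and 4.30 CPM. Krt8, a keratin of simple epithelia, stood at 1135 to 2151 CPM in PyMT-M and 898 to 1333 CPM in 2208L, and Krt18, its partner, at 938 to 1786 CPM in PyMT-M and 926 to 1532 CPM in 2208L. The Epcam libraries did not overlap between the models, but none of these genes passed the test between PyMT-M and 2208L (log2 differences 0.41, 0.47 and 0.16, edgeR adjusted p = 0.419, 0.201 and 0.686). Cdh1, which encodes E-cadherin, was higher in PyMT-M with a log2 difference of 0.89 ± 0.26 (edgeR adjusted p = 0.00817). The estrogen receptor gene Esr1 did not exceed 0.504 CPM in any of the 7 libraries, the gene of the progesterone receptor fell under the expression filter, and Erbb2 stood at 79.8 to 106 CPM in PyMT-M and 117 to 165 CPM in 2208L.

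Several regulators of the luminal and secretory program were higher in PyMT-M. Of 21 luminal and epithelial markers tested, 8 were higher and 3 lower (median 0.52). Gata3, a transcription factor of luminal fate, had 47.6, 44.2, 49.02 and 54.1 CPM in the PyMT-M libraries and 0.906, 0.588 and 0.905 CPM in the 2208L libraries. All 4 PyMT-M libraries lay far above all 3 2208L libraries, a log2 difference of 5.93 ± 0.34 (edgeR adjusted p = 5.1e-11). Elf5, which drives alveolar differentiation, had 456, 475, 549 and 436 CPM in the PyMT-M libraries and 35.8, 47.4 and 85.8 CPM in the 2208L libraries. The groups did not overlap, and the change was a log2 difference of 3.09 ± 0.27 (edgeR adjusted p = 8.7e-08). Prlr, the prolactin receptor, and Ehf, an epithelial ETS factor, were higher by 4.26 and 2.68, and Prom1, a marker of luminal progenitors, by 1.21. Elf3, another epithelial ETS factor, went the other way with a log2 difference of -1.59 ± 0.28 (edgeR adjusted p = 0.00011).

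Milk genes were mixed, with 8 of 16 higher in PyMT-M and 2 lower (median 1.38). Csn3, the gene of kappa-casein, had 10111, 6498, 8152 and 10859 CPM in the PyMT-M libraries and 121, 427 and 812 CPM in the 2208L libraries, and Xdh, an enzyme needed for milk fat secretion, had 852, 806, 1038 and 894 CPM in the PyMT-M libraries and 103, 132 and 113 CPM in the 2208L libraries. No 2208L library reached the lowest PyMT-M library for either gene, with differences of 4.30 and 2.95. Wap, the whey acidic protein gene, had 16.1, 36.98, 83.9 and 26.2 CPM in PyMT-M and no read in 2208L, which makes it at least 425-fold higher. Csn1s2a, another casein gene, stood at 26.4 to 109 CPM in PyMT-M and 0 to 0.420 CPM in 2208L. Other genes of the list did not follow them. Csn2, the gene of beta-casein, had no read in PyMT-M and 2.22, 2.52 and 2.71 CPM in 2208L (edgeR adjusted p = 0.00047, but DESeq2 adjusted p = 0.137), and Mfge8, which encodes a milk fat globule protein, was lower in PyMT-M with a log2 difference of -1.45 ± 0.24 (edgeR adjusted p = 4.9e-05). Csn1s1, the gene of alpha-S1-casein, stood at 117 to 245 CPM in PyMT-M and 164 to 223 CPM in 2208L and was not called (0.00, edgeR adjusted p = 1).

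Basal markers were mixed rather than shifted one way: 5 of 18 were higher, 3 were lower, and the median was 0.24. Krt5, the defining keratin of basal cells, had 39.8, 139, 27.7 and 41.8 CPM in PyMT-M and no read in 2208L, at least 667-fold higher. Trp63, which encodes the basal regulator p63, had 10.5, 18.4, 7.76 and 7.61 CPM in the PyMT-M libraries and 0.403, 0.420 and 0.905 CPM in the 2208L libraries, a log2 difference of 4.25 ± 0.68 (edgeR adjusted p = 4.4e-05). Krt14, the usual partner of keratin 5, was low in both models (0.732 to 5.88 CPM in PyMT-M and 6.13 to 10.2 CPM in 2208L) and was not called (edgeR adjusted p = 0.161). Dsg3, a desmoglein of stratified epithelia, Cdh3, which encodes P-cadherin, and Krt15 were higher in 2208L, with log2 differences of -5.81, -2.44 and -2.69.

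Of 18 mesenchymal transition genes, 3 were higher and 8 lower in PyMT-M (median -1.43). Fn1, the fibronectin gene, had 1845, 3401 and 2955 CPM in 2208L and 434, 177, 131 and 212 CPM in PyMT-M, a log2 difference of -3.52 ± 0.40 (edgeR adjusted p = 5e-07). Snai1, a repressor of E-cadherin, stood at 0.951 to 1.47 CPM in PyMT-M and 10.7 to 12.3 CPM in 2208L, and Cdh2, the gene of N-cadherin, at 2.86 to 8.34 CPM in PyMT-M and 24.7 to 33.7 CPM in 2208L, differences of -3.19 and -2.20. Of the 8 lower genes, 6 were highest in 2208L replicate 2, the library with the highest fibroblast markers, of which 12 of 18 were lower in PyMT-M too (summed over the list 2119 to 5799 CPM in PyMT-M and 3254 to 18421 CPM in 2208L). Without that library 7 mesenchymal genes were called lower, and the part of fibroblasts in the difference was not tested. Vim, the most widely used mesenchymal marker, did not follow them: it stood at 784 to 1368 CPM in PyMT-M and 1036 to 1218 CPM in 2208L and was not called (edgeR adjusted p = 0.842).

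**Figure D2:**
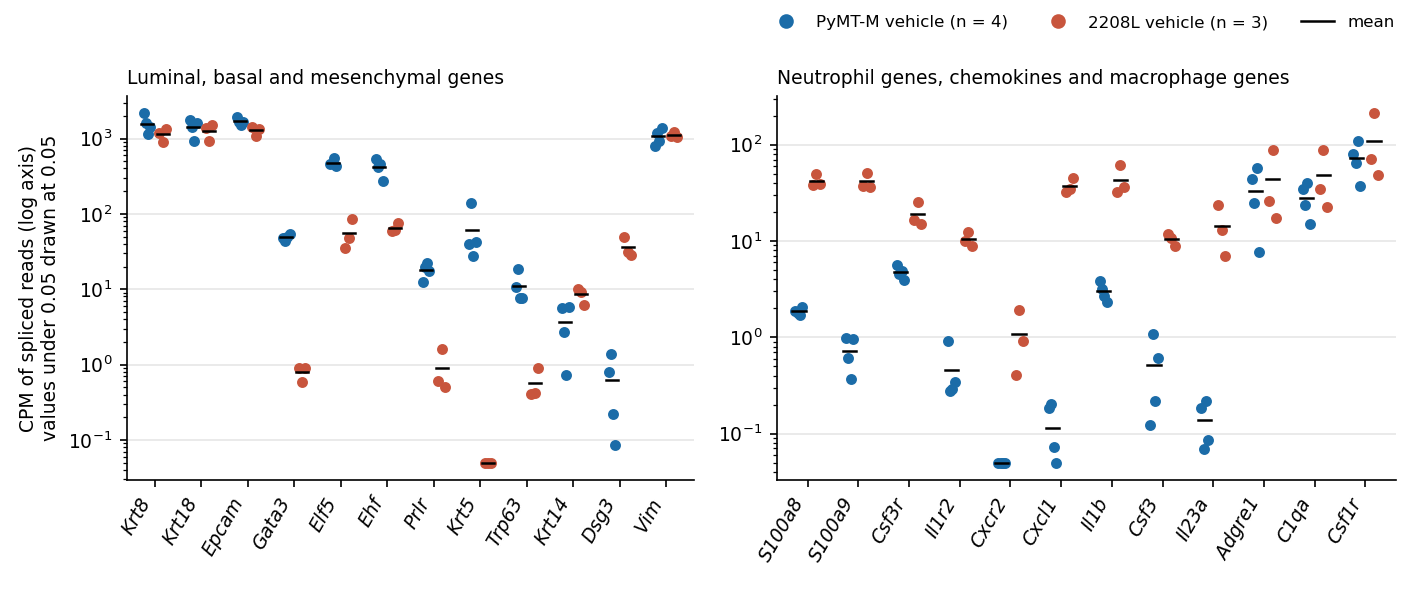
Points are single libraries (PyMT-M vehicle n = 4, 2208L vehicle n = 3) and bars are group means of CPM on a log axis, with values under 0.05 drawn at 0.05. Krt8, Krt18 and Vim overlapped between the models, Gata3, Elf5, Krt5 and Trp63 were higher in PyMT-M, and S100a8, S100a9, Cxcl1 and Il1b were higher in 2208L. Adgre1, C1qa and Csf1r overlapped.

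The 15 genes named by size as higher in PyMT-M were Mup5, Mup19 and Mup4 (major urinary proteins), Scgb1b27, Scgb2b27, Scgb1b30, Scgb2b26 and Scgb2b24 (secretoglobins), Dcpp1, Dcpp2 and Dcpp3 (salivary proteins), Pip (prolactin-induced protein), Prol1, BC048546 and the keratin gene Krt5. None of the 15 had a read in a 2208L vehicle library. Mup5 had 2302, 2723, 45709.6 and 5305 CPM in the 4 PyMT-M tumors, at least 143775-fold more than in 2208L, and Scgb1b27 had 2279.8, 5348, 29112 and 7201 CPM. Mup19 spanned 1.89 to 17554 CPM and Scgb2b24 0.426 to 1819.9 CPM, so the spread between PyMT-M tumors was itself large. Pip had 214, 494, 5275 and 464 CPM, and replicate 3 was the highest of the 4 libraries for 11 of the 15 genes. Scgb2b24 lost its call in the fits without any 1 of 6 libraries (PyMT-M replicate 2, 3 or 4, or 2208L replicate 1, 2 or 3; edgeR adjusted p = 0.061 to 0.0908), and Scgb1b30 in those without 2208L replicate 2 or 3 (0.0556 and 0.0514). Mup19 was not called in the fit of the 7 libraries alone or with the median over introns as the gene count (edgeR adjusted p = 0.102 and 0.0919), and BC048546 not with that median (0.101). Mup, Scgb and Dcpp genes have near-identical copies, so the share of each single gene is uncertain, while their sum over 20 genes rested on 154088 to 1691010 reads in a PyMT-M library against 0 to 5 in a 2208L library. In a bulk tumor, fewer cells of a type and less RNA per cell cannot be told apart.

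The 15 genes named by size in the other direction were a more varied set. Fam150b, which encodes a secreted ligand of the receptor ALK, had 818, 536 and 747 CPM in 2208L and 1 read in all 4 PyMT-M libraries, a ratio of 38864 with a 95% counting interval from 6975 to 1535053. Fgg, the gene of the fibrinogen gamma chain made mainly by liver, had 466, 469 and 573 CPM in 2208L and 0, 0.342, 0.220 and 0.259 CPM in PyMT-M. Duox1 and Duoxa1, an oxidase that makes hydrogen peroxide at epithelial surfaces and its maturation factor, were higher together, at 89.7 to 125 CPM and 106 to 154 CPM in 2208L against 0 to 0.304 CPM and 0.122 to 0.951 CPM in PyMT-M. Stra6, the retinol-binding protein receptor, stood at 0.0732 to 1.12 CPM in PyMT-M and 155 to 412 CPM in 2208L, and Tnnt2, a cardiac troponin, at 1.61 to 2.59 CPM in PyMT-M and 312 to 578 CPM in 2208L. Igf2bp1, an RNA-binding protein of fetal tissue, Gata4, a transcription factor of heart and endoderm, Erich2, Cxcl11, Cyp11a1 and Bcl11a had no read in any PyMT-M vehicle library and means of at least 5 CPM in 2208L, and Igf2bp1 was at least 638-fold higher. Myoz1, a muscle gene, was at 20.5, 0.252 and 0.302 CPM in 2208L, and its call ended without replicate 1 (edgeR adjusted p = 0.37).

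The remaining genes of that set, Cftr and the neutrophil chemokine Cxcl1, lead to separate patterns. Cftr encodes a chloride channel and lies next to Met, the gene of the hepatocyte growth factor receptor, on chromosome 6. Met had 4029, 3756 and 3980.1 CPM in 2208L and 48.4, 40.2, 31.8 and 33.7 CPM in PyMT-M, a log2 difference of -6.67 ± 0.32 (edgeR adjusted p = 3.1e-12). All 3 2208L libraries lay far above all 4 PyMT-M libraries, and the AT3 and T11 vehicle libraries were also low (47.5 to 155 CPM). Cftr had 238, 223 and 269.8 CPM in 2208L and no read in PyMT-M, at least 4548-fold higher in 2208L.

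Most genes tested around Met were also lower in PyMT-M. Between Tes and Wasl (chr6:17065313-24664536 in mm10, 7.60 Mb from the first to the last intron), 21 genes were tested, of which 16 were lower in PyMT-M and 1 was higher, with a median log2 difference of -4.35. All 16 lower genes exceeded an 8-fold difference. These genes were chosen after their values were seen. Tes, which encodes a focal adhesion protein, had 8069, 5823 and 6691 CPM in 2208L and 93.4, 79.4, 74.999 and 85.4 CPM in PyMT-M, and Capza2, a subunit of the actin capping protein, had 10914, 10084 and 11562 CPM in 2208L and 217, 219.7, 205 and 137 CPM in PyMT-M. Lsm8, part of the U6 snRNP, and Ing3, a chromatin reader, had log2 differences of -6.64 and -4.35, and St7, Cav2, Fam3c, Ndufa5 and Wasl of -4.80, -4.23, -3.80, -4.25 and -4.74. The groups did not overlap for any of these 9 genes, which describes genes already chosen by their values.

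Not every gene of the stretch was called lower. Cav1, Wnt2, Cped1 and Aass were not called, although Cped1 was called as higher in PyMT-M without PyMT-M replicate 1 or 2208L replicate 2 (edgeR adjusted p = 0.0321 and 0.00366), and Cav1 as lower in the fit of the 7 libraries alone (-0.79, edgeR adjusted p = 0.0237). Tspan12 was higher in PyMT-M by 0.54, a call that ended without PyMT-M replicate 1, 2 or 3 or 2208L replicate 1 or 2 (edgeR adjusted p = 0.0578 to 0.235). One of the 16, Lmod2, is a muscle gene without a read in PyMT-M and with 3.42, 0.587 and 1.11 CPM in 2208L, not called without 2208L replicate 1 (edgeR adjusted p = 0.0565). Genes beyond the stretch were lower too, by less. Of the 40 other genes tested from 6 Mb before to 14 Mb after Met, 25 (62.5%) were lower and 1 was higher, with a median of -0.85, against 22% lower among all genes. The 8 before Tes held 1 lower gene, Mdfic (-1.13), and Tfec, just before Tes, was not called. The 32 after Wasl held 24 lower genes (median -1.01), starting with Pot1a (-1.55). Fitted differences over 8-fold there were those of Fam71f1, Cpa1 and Flnc. Fam71f1 had no read in PyMT-M and 0.504, 0.168 and 0.402 CPM in 2208L, so its fitted value depends on the prior count and is no size. Flnc, a muscle filamin, was at 36.4, 8.73 and 1.21 CPM in 2208L. The Flnc call ended without 2208L replicate 1 (edgeR adjusted p = 0.155). None of Fam71f1, Cpa1 and Flnc was called with the median over introns as the gene count (0.159 to 1.0). In the drug-treated tumors, which share the fit but no library with the vehicle groups, the differences were -7.28 for Met, -6.99 for Tes, -5.89 for Capza2 and -4.49 for Wasl. Cav1 was called lower there (-2.09, edgeR adjusted p = 3.9e-05) and Aass higher (2.11, edgeR adjusted p = 0.00015). DNA copy number was not analysed here.

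**Figure D3:**
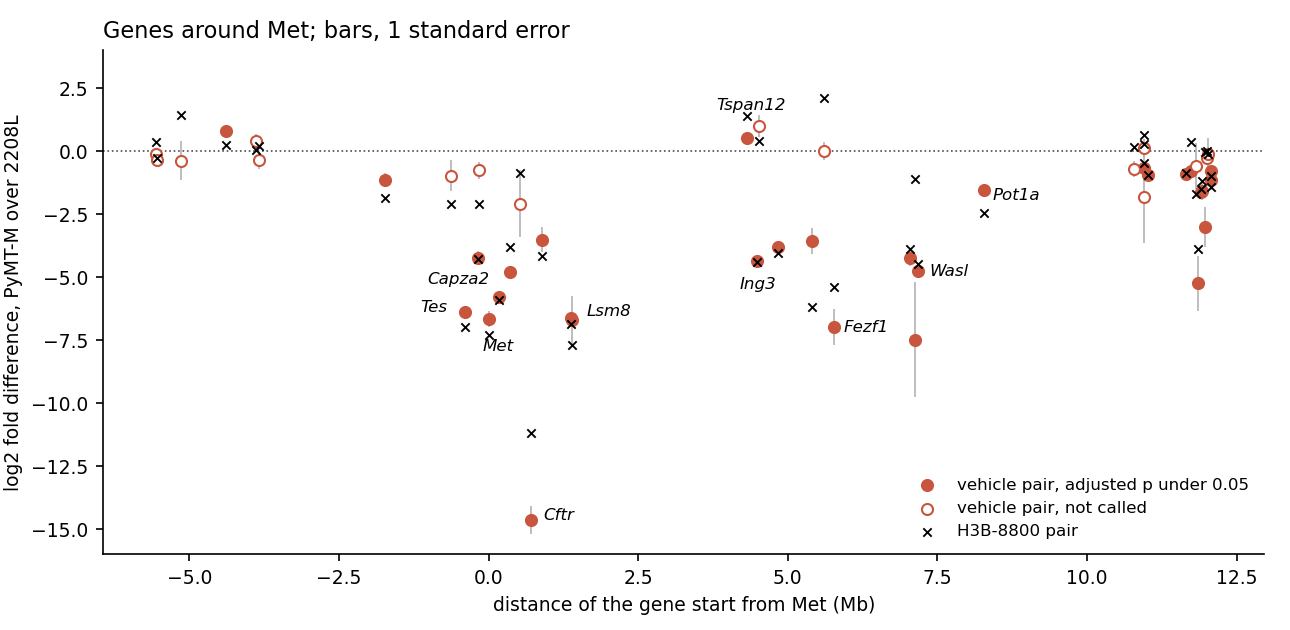
Circles are the log2 differences of the genes around Met in vehicle tumors with 1 standard error, placed by the distance of the gene start from that of Met in Mb. Filled circles were called, and crosses are the drug-treated pair. Called genes from Tes to Wasl sit near or under -3.5 apart from Tspan12, and flanking genes mostly lie between -2.5 and 1. The fitted values of Cftr, Lmod2 and Fam71f1, which had no read in PyMT-M, depend on the prior count and are no sizes.

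The Cftr reads of 2208L lay mostly at the end of the gene. Summed over the 3 vehicle libraries, introns 1 to 21 of its 26 introns had 1 to 10 spliced reads each, 92 in all, while introns 22 to 26 had 559 to 2255 each, 7614 in all. Reads inside intron 21 numbered 320. The 60 bases around each of 3 exon junctions are shown because they mark the change: junction 21-22 was nearly unused, and junctions 22-23 and 25-26 carried the reads. Lower case is the end of the exon before the intron, capitals are the start of the exon after it, read 5′ to 3′ on the plus strand of the mouse genome, build GRCm38, which has the coordinates of mm10.
Cftr exon 21 to exon 22 (intron chr6:18285648-18299682, 10 spliced reads in 2208L): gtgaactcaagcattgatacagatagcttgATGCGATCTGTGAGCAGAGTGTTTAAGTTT
Cftr exon 22 to exon 23 (intron chr6:18299935-18305831, 559 spliced reads in 2208L): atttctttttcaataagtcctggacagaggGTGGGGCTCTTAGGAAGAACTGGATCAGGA
Cftr exon 25 to exon 26 (intron chr6:18319087-18319675, 2255 spliced reads in 2208L): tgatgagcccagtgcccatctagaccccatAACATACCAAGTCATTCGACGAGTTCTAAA

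A similar boundary was present in each 2208L vehicle library: intron 21 had 1, 6 and 3 spliced reads and intron 22 had 126, 248 and 185. The PyMT-M vehicle libraries had no spliced read over any of the 26 introns.

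**Figure D4:**
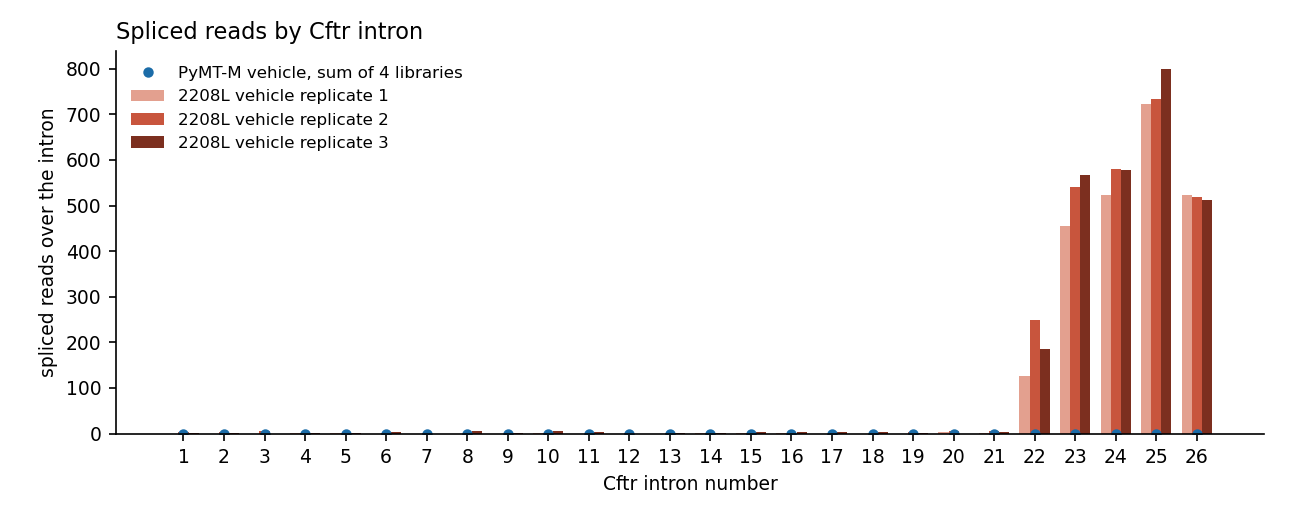
Bars are spliced reads over each of the 26 Cftr introns in the 3 2208L vehicle libraries, and points are the sum of the 4 PyMT-M libraries, which is 0 for every intron. The bars are close to 0 up to intron 21 and reach 513 to 799 reads over introns 25 and 26.

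Of 28 receptors and ligands of growth factors, 7 were higher and 9 lower in PyMT-M (median -0.59), against 23.5% and 22% of all genes. Without 2208L replicate 2, 6 were higher and 6 lower. Egfr, the EGF receptor gene, had 51.6, 64.7, 69.95 and 45.4 CPM in the PyMT-M libraries and 1.81, 6.46 and 1.61 CPM in the 2208L libraries, a log2 difference of 4.11 ± 0.46 (edgeR adjusted p = 4.8e-07). Nrg1, which encodes neuregulin, a ligand of ERBB receptors, had 47.7, 59.1, 119.9 and 95.4 CPM in the PyMT-M libraries and 1.91, 3.53 and 1.41 CPM in the 2208L libraries, a log2 difference of 5.12 ± 0.51 (edgeR adjusted p = 8.7e-08). Btc, the EGFR ligand betacellulin, and Fgf1 were higher by 3.58 and 4.47, and the groups did not overlap for any of these 4 genes. Besides Met, the IGF receptor gene Igf1r was higher in 2208L (2.51 to 4.75 CPM in PyMT-M and 24.8 to 37.9 CPM in 2208L, a log2 difference of -3.11 ± 0.33 (edgeR adjusted p = 2.6e-07)). Erbb2 was lower in PyMT-M by a small margin (-0.58), and without 2208L replicate 3 it was no longer called (edgeR adjusted p = 0.107).

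Genes of the p53 pathway were mostly higher in PyMT-M. Of 27 genes tested, 17 were higher and 1 was lower, against 23.5% and 22% of all genes, and the median was 1.05. Cdkn1a, which encodes the CDK inhibitor p21, had 39.8, 82.7, 99.1 and 50.6 CPM in the PyMT-M libraries and 2.52, 3.78 and 1.31 CPM in the 2208L libraries. Every PyMT-M library lay above every 2208L library, with a log2 difference of 4.73 ± 0.43 (edgeR adjusted p = 2.6e-08). Ccng1, the gene of cyclin G1, had 120.1, 194, 195 and 105 CPM in the PyMT-M libraries and 25.98, 28.5 and 21.2 CPM in the 2208L libraries, a log2 difference of 2.60 ± 0.29 (edgeR adjusted p = 4.6e-07). Other targets moved the same way: Sesn2, a stress-induced regulator of mTORC1, by 2.73, Btg2, an antiproliferative factor, by 2.89, Ei24, an endoplasmic reticulum protein, by 1.40, Dcxr by 3.99 and the cell death gene Bbc3, which encodes PUMA, by 1.68. The 1 lower gene was Pmaip1, which encodes NOXA (0.778 to 0.889 CPM in PyMT-M and 3.69 to 3.93 CPM in 2208L, -2.20), which was also lower in AT3 than in T11 libraries without overlap.

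Trp53 itself did not pass the test. It had 90.6, 99.7, 79.1 and 105 CPM in the PyMT-M libraries and 108, 114 and 128 CPM in the 2208L libraries, a log2 difference of -0.32 ± 0.15 (edgeR adjusted p = 0.0873), and of the alternatives run it passed in the fit without the T11 libraries (edgeR adjusted p = 0.0426). Reads spliced across each of its 9 introns were present in both models. There were at most 695 per intron over the 4 PyMT-M libraries and 382 to 500 over the 3 2208L libraries. A read that skips an exon counts at both introns beside it, so these counts do not show that every exon was included. Reads inside the Trp53 introns differed, however. Percentages here use the spliced reads at the intron, and the log2 differences those of the whole gene. Intron 4 held a mean of 24.1% of the intronic and spliced reads at that intron in PyMT-M and 2.88% in 2208L (log2 difference 3.55 ± 0.62, edgeR adjusted p = 0.000459 over introns). Intron 1 held 64.1% and 84.9% (-2.17 ± 0.33, edgeR adjusted p = 6.01e-05), and intron 7 held 11.8% and 30.7% (-2.07 ± 0.47, edgeR adjusted p = 0.00771). Cdkn2a, the locus of p16 and ARF, was lower in PyMT-M (6.03 to 34.9 CPM in PyMT-M and 40.1 to 69.4 CPM in 2208L, a log2 difference of -1.28 ± 0.38 (edgeR adjusted p = 0.00925)), but not called in the fit of the 7 libraries alone (edgeR adjusted p = 0.0557).

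Genes of the cell cycle were lower in PyMT-M nearly as a block. Of 21 mitosis genes, 20 were lower and none was higher (median -1.31), and of 21 DNA replication genes, 20 were lower and none was higher (median -1.23), against 22% lower among all genes. Cdc20 and Rfc3 were the 2 genes not called, although Cdc20 was called lower without PyMT-M replicate 4 (edgeR adjusted p = 0.0404). Top2a, the topoisomerase that untangles chromosomes, had 166, 158, 120.4 and 205 CPM in the PyMT-M libraries and 567, 536 and 657 CPM in the 2208L libraries, a log2 difference of -1.85 ± 0.28 (edgeR adjusted p = 2.2e-05). Mki67, the gene of the proliferation marker Ki-67, had 37.02, 35.4, 26.9 and 76.5 CPM in the PyMT-M libraries and 129.7, 92.4 and 118 CPM in the 2208L libraries, a log2 difference of -1.37 ± 0.37 (edgeR adjusted p = 0.00469). PyMT-M replicate 4 was the highest and replicate 3 the lowest of the PyMT-M libraries for both genes, and all 4 lay under all 3 2208L libraries. With the median over introns as the gene count, Mki67 was not called (-1.19, edgeR adjusted p = 0.0625).

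Further genes of these lists were lower. The spindle checkpoint genes Bub1 and Bub1b differed by -2.01 and -1.69, the kinesin genes Kif23 and Cenpe by -1.78 and -1.52, and Tpx2, a spindle assembly factor, by -1.31. Subunits of the replicative helicase were lower as well, with -1.45 for Mcm2, -1.66 for Mcm3 and -1.30 for Mcm4, and so were the origin factors Cdc45 (-1.94) and Cdc6 (-1.76) and the ribonucleotide reductase subunit Rrm2 (-1.70). Among 19 genes of G1 and S control, 9 were lower and 2 higher (median -0.85), 1 of them without 2208L replicate 2. E2f1, which activates S phase genes, Cdk2, Ccne2, Ccnd1 and Myc were lower, with log2 differences of -1.40, -1.27, -1.27, -1.17 and -0.95. Cdkn2c, the gene of the CDK inhibitor p18, was higher (3.65 to 13.6 CPM in PyMT-M and 1.91 to 2.01 CPM in 2208L, 2.25). Without any 1 library, 17 to 21 mitosis genes and 19 or 20 replication genes were lower.

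**Figure D5:**
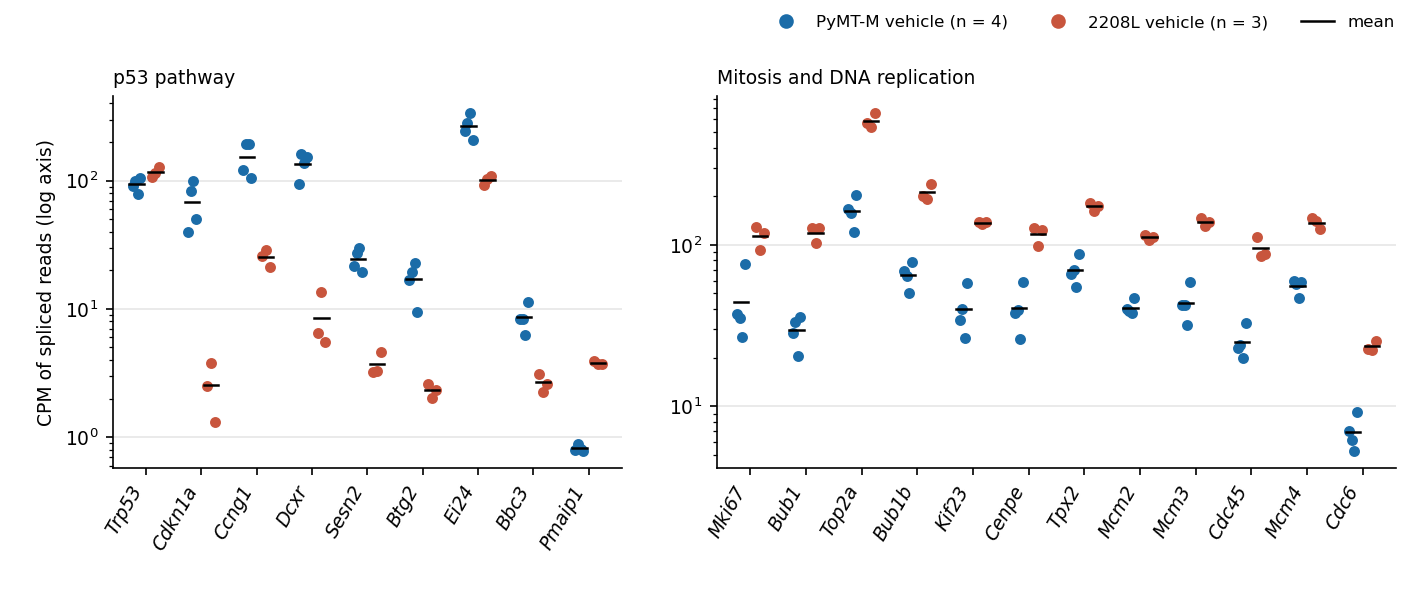
Points are single libraries (PyMT-M vehicle n = 4, 2208L vehicle n = 3) and bars are group means of CPM on a log axis. Cdkn1a, Ccng1, Dcxr, Sesn2, Btg2, Ei24 and Bbc3 were higher in every PyMT-M library than in any 2208L library, and Pmaip1 and the mitosis and replication genes shown were lower in every one.

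The promoters of the listed mitosis genes were searched for TTTGAA on both strands (TTCAAA). It is the core of the cell cycle genes homology region that the DREAM and MuvB complexes bind. The windows run from 250 bases before to 50 bases after the gene start, in RefSeq sequences of GRCm38.p6. Of 22 listed mitosis genes, 18 were matched to a promoter, and 13 of these 18 held the motif, against 17.9% of all 32851 promoters. A match is a description of letters and not of binding. The list is one of known mitosis genes and no other list was searched. The background is all promoter entries and not the genes tested, so the share does not bear on the difference between the models. Of the 6 mitosis genes with the smallest p, Top2a, Bub1b and Kif23 held it, Bub1 and Cenpe held none in this window, and Tpx2 had no entry. The promoters of Mki67 and Cdc20 held it as well. Those of Top2a, Bub1b and Kif23 are shown 5′ to 3′ on the strand of the gene, with the motif in capitals.
Top2a (chr11:99024140-99024439, minus strand): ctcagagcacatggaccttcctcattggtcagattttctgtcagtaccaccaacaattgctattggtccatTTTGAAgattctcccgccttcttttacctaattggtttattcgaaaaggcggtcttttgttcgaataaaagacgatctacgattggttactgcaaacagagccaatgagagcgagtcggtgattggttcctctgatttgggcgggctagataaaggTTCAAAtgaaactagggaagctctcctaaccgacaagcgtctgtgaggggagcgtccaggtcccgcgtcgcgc
Bub1b (chr2:118597961-118598260, plus strand): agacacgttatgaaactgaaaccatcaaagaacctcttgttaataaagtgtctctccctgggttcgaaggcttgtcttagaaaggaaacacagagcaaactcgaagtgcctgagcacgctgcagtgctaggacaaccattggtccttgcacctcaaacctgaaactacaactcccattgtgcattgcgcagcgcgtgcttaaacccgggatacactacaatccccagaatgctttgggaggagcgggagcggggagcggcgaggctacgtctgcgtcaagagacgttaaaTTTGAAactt
Kif23 (chr9:61946750-61947049, minus strand): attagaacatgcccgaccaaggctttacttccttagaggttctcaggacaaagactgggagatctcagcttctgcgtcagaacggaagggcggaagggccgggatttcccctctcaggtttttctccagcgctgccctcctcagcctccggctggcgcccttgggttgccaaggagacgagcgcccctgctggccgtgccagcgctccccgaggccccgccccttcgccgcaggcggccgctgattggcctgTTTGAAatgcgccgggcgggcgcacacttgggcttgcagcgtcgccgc

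Counted from 1 at the 5′ end of each window, the motif started at bases 72 and 228 in Top2a, at base 291 in Bub1b and at base 253 in Kif23.

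Neutrophil genes were lower in PyMT-M. Of 19 markers, 16 were lower and 1 higher (median -3.70), and 14 to 16 were lower without any 1 library. S100a8, a subunit of calprotectin, which fills the neutrophil cytosol, had 38.5, 49.03 and 39.003 CPM in 2208L and 1.89, 1.78, 1.68 and 2.07 CPM in PyMT-M, and its partner S100a9 had 37.3, 50.5 and 36.7 CPM in 2208L and 0.974, 0.615, 0.366 and 0.951 CPM in PyMT-M. Every 2208L library lay above every PyMT-M library for both genes, with a log2 difference of -4.50 ± 0.44 (edgeR adjusted p = 6.9e-08) and a log2 difference of -5.82 ± 0.55 (edgeR adjusted p = 5.4e-08). Csf3r, the G-CSF receptor, Il1r2, a decoy receptor of interleukin 1, and Hdc, which makes histamine, differed by -1.99, -4.45 and -4.30. Cxcr2, the receptor of the CXC chemokines, had 0.403, 1.93 and 0.905 CPM in 2208L and no read in PyMT-M. The 1 higher gene was Ltf, lactoferrin, at 3227 to 11410.0 CPM in PyMT-M and 37.6 to 81.3 CPM in 2208L, which mammary epithelium also makes. Lcn2, lipocalin 2, another product of neutrophils and epithelium, stood at 9511 to 18079 CPM in PyMT-M and 6388 to 8862 CPM in 2208L and was not called (edgeR adjusted p = 0.462), although it was called higher in the 7 libraries alone and without the T11 libraries (0.0365 and 0.0156). These 2 genes set the summed level of the list, which was higher in PyMT-M (12747 to 23339 CPM) than in 2208L (6649 to 9063 CPM), and still higher without Ltf (9520.4 to 18089 against 6611 to 8999 CPM). Without both, the other 17 genes summed to 9.34 to 18.3 CPM in PyMT-M and 137.4 to 223.1 CPM in 2208L.

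The cytokines that recruit neutrophils were lower too, 8 of 16 with none higher (median -2.08, or -1.99 with genes lacking reads set at their bound). Cxcl1, a CXCR2 ligand, had 32.03, 34.7 and 45.4 CPM in 2208L and 0.183, 0.205, 0.0732 and 0 CPM in PyMT-M, a log2 difference of -8.14 ± 0.55 (edgeR adjusted p = 5.2e-10). Il1b, the gene of interleukin 1 beta, had 32.4, 61.1 and 36.6 CPM in 2208L and 3.84, 3.14, 2.71 and 2.33 CPM in PyMT-M, a log2 difference of -3.84 ± 0.42 (edgeR adjusted p = 3.4e-07). Csf3, which encodes G-CSF, stood at 0.122 to 1.09 CPM in PyMT-M and 8.95 to 11.8 CPM in 2208L and Il23a, an interleukin 23 subunit, at 0.0684 to 0.220 CPM in PyMT-M and 6.94 to 23.4 CPM in 2208L, and the groups did not overlap for any of these 4 genes. Cxcl5, another CXCR2 ligand, was low in both (0 to 1.58 CPM in PyMT-M and 0.603 to 1.26 CPM in 2208L) and not called (edgeR adjusted p = 0.687). Without 2208L replicate 2, 5 of the 16 were called.

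Macrophage genes differed less and rested more on single libraries. Of 24 markers, 8 were lower and 1 higher (median -0.77), but 3 were lower without 2208L replicate 2 and 13 without 2208L replicate 3. Spp1, osteopontin, which tumor cells also make, had 2714, 4855 and 3076 CPM in 2208L and 390.2, 1096, 516 and 813 CPM in PyMT-M, a log2 difference of -2.33 ± 0.42 (edgeR adjusted p = 0.00014). Ccr2, the CCL2 receptor of monocytes, and Msr1, a scavenger receptor, were lower, with log2 differences of -4.42 and -2.67, and Lyz2 and Fcgr1 were lower but lost the call without 2208L replicate 2 (edgeR adjusted p = 0.167 and 0.0666). Mertk, a receptor for apoptotic cells, was higher in PyMT-M (11.8 to 15.4 CPM in PyMT-M and 1.11 to 8.06 CPM in 2208L, a log2 difference of 1.97 ± 0.47 (edgeR adjusted p = 0.00169)). The pan-macrophage genes Adgre1, Csf1r and C1qa stood at 7.61 to 57.1 CPM in PyMT-M and 17.2 to 87.6 CPM in 2208L, 37.2 to 109 CPM in PyMT-M and 48.3 to 211 CPM in 2208L and 15.04 to 39.7 CPM in PyMT-M and 22.7 to 88.2 CPM in 2208L, and none was called. C1qa was called as lower without PyMT-M replicate 3 or 2208L replicate 3 and Csf1r without 2208L replicate 3 (edgeR adjusted p = 0.0424, 0.0141 and 0.022), whereas without 2208L replicate 2 Adgre1 and Csf1r had positive differences (0.62 and 0.29). Csf1, their growth factor, also overlapped (14.4 to 24.1 CPM in PyMT-M and 17.2 to 28.3 CPM in 2208L). Of 16 monocyte-recruiting factors, 9 were lower and 1 higher (median -1.28): Cxcl12, Ccl2, Ccl4 and Ccl12 were lower, with log2 differences of -3.47, -2.48, -2.38 and -2.39.

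Other cell types were compared by their marker lists. Of 18 fibroblast and matrix genes, 12 were lower in PyMT-M (median -1.26), among them Col1a1 (-1.75), Col5a1 (-1.68) and Fap (-1.19), but 1 was called without 2208L replicate 2 and 6 without PyMT-M replicate 2, 3 or 4. Without 2208L replicate 2 these 3 genes had edgeR adjusted p = 0.127, 0.0691 and 0.144. Of 16 skeletal muscle genes, 14 were lower, none without 2208L replicate 1, and 9, 7 and 9 without PyMT-M replicates 1, 2 and 3. Of 12 endothelial genes, 1 was higher and 1 lower. The lower one was Eng, which encodes endoglin, a TGF-beta coreceptor (38.5 to 63.6 CPM in PyMT-M and 221 to 258 CPM in 2208L, a log2 difference of -2.35 ± 0.18 (edgeR adjusted p = 2.9e-09)). The higher one, Robo4, a receptor of endothelial cells (1.04), was not called without PyMT-M replicate 1 or 4 or 2208L replicate 1 or 3, and 7 were higher without 2208L replicate 2. At most 1 gene was called in each of the lists of 10 T cell, 7 NK and 12 B cell markers, whose summed levels over the 7 libraries were 8.85 to 38.6, 2.61 to 14.7 and 3.32 to 7.73 CPM. Of 6 mast cell, eosinophil and basophil markers, 4 were lower (median -4.51, or -4.44 with genes lacking reads set at their bound), with summed levels of 0.137 to 0.548 CPM in PyMT-M and 1.81 to 11.9 CPM in 2208L.

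Interferon-stimulated genes leaned toward 2208L, with 2 of 34 higher and 11 lower in PyMT-M (median -0.69), against 23.5% and 22% of all genes. Without any 1 library, 8 to 10 were lower, the fewest without 2208L replicate 1. Cxcl10, a chemokine induced by interferon, had 25.2, 20.7 and 18.2 CPM in 2208L and 2.98, 2.32, 2.41 and 2.68 CPM in PyMT-M, a log2 difference of -3.03 ± 0.43 (edgeR adjusted p = 8.3e-06). Ifit2, Mx1 and Oasl1, antiviral effectors, were lower, with log2 differences of -3.14, -2.03 and -1.60, while Irf9, a subunit of the interferon-activated factor ISGF3, was higher by 0.90. In the drug-treated pair, 4 were higher and 5 lower, against backgrounds of 26% and 26.7% there. Of 17 genes of double-stranded RNA sensors and their signalling, 4 were lower and none was higher, against 22% and 23.5% of all genes. Without 2208L replicate 1, 2 were lower. Among them Ripk3, a kinase of necroptosis, and Ikbke, a kinase upstream of interferon, were lower, with log2 differences of -2.12 and -1.78.

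Of 15 MHC class I presentation genes, 2 were higher and 3 lower. B2m, the light chain of MHC class I, was lower in PyMT-M (489.7 to 738 CPM in PyMT-M and 974.6 to 1535 CPM in 2208L, a log2 difference of -0.89 ± 0.24 (edgeR adjusted p = 0.00477)), as were Psmb8 (-0.94), an immunoproteasome subunit, and Erap1 (-0.67), a peptide trimming enzyme. H2-K1 and H2-T23, class I heavy chains, were higher by 2.88 and 2.11. H2-K1 differs in sequence between the mouse strains, and its counts did so by junction: over the 7 introns, introns 2 to 5 had 4651 to 5869 spliced reads in PyMT-M and 14 to 105 in 2208L, while intron 7 had 7174 and 1653. The part of strain sequence in this difference was not tested. Of 12 MHC class II presentation genes, 3 were lower and none was higher, and H2-Ab1 stood at 92.9 to 193 CPM in PyMT-M and 60.6 to 128 CPM in 2208L. Of 12 checkpoint genes, 3 were higher and 6 lower: the ectonucleotidase gene Entpd1 (CD39) was higher by 3.42, and its partner Nt5e (CD73) lower, with log2 differences of -2.85. Cd274, which encodes PD-L1, stood at 0.957 to 1.95 CPM in PyMT-M and 3.73 to 6.63 CPM in 2208L, a log2 difference of -1.84 ± 0.44 (edgeR adjusted p = 0.00188).

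Genes that separate the C57BL/6 models from the Balb/c models were listed apart. Among the 13001 genes tested, every one of the 13 libraries from C57BL/6 hosts lay above every one of the 12 from Balb/c hosts in 122. In 116 genes they lay below. Other ways of splitting the 4 models were not counted, so strain and model cannot be told apart for these genes either. The 7 vehicle libraries helped to choose these genes, so the counts describe them and no test was made. H2-Ea-ps, the class II gene whose expression is lost in C57BL/6 mice, had 88.2, 82.3 and 57.5 CPM in 2208L and 1 read in PyMT-M, a ratio of 4299 with a 95% counting interval from 772 to 169808. A further pair of genes was picked after their values were seen. Ifi202b, an interferon-inducible gene with known strain variation, stood at 0 to 2.07 CPM in PyMT-M and 37.9 to 76.1 CPM in 2208L, and the ribosomal gene Rpl21 at 235 to 567 CPM in PyMT-M and 4.70 to 5.84 CPM in 2208L. Rps2, another ribosomal gene, was higher in PyMT-M by 3.20. Its introns 1, 4 and 5 had 2425, 13851 and 7690 spliced reads in PyMT-M and 15, 69 and 16 in 2208L, but intron 3 had 6413 and 2064. Ribosomal genes have many processed copies, so the difference of both is uncertain. Cftr, Cpa1, Cdkn2a, Pmaip1, Oasl1, Tcf7, Erich2 and Tnnt2 are described here for other reasons. They were also lower in every library from C57BL/6 hosts than in any from Balb/c hosts. Cdkn2a reached at most 34.9 CPM in the former and at least 40.1 CPM in the latter, and Tnnt2 at most 7.71 and at least 69.5 CPM. For Cftr and Cpa1 the split lay near the floor, at most 0.192 and 0.218 CPM against at least 0.343 and 0.575 CPM. Cftr stood at 0.343 to 1.01 CPM in the T11 vehicle libraries, far under the 223 to 270 CPM of the 2208L vehicle libraries.

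The splicing machinery, the drug target, differed modestly between the untreated models. Of 18 genes of the SF3B complex and the U2 snRNP, 10 were lower in PyMT-M and none was higher (median -0.38). Sf3b1, the subunit that H3B-8800 binds, had 537, 526, 468 and 679 CPM in the PyMT-M libraries and 475, 459 and 518 CPM in the 2208L libraries and was not called (0.19, edgeR adjusted p = 0.328). Sf3b4 had 44.6, 47.98, 43.7 and 62.2 CPM in the PyMT-M libraries and 173, 135 and 156 CPM in the 2208L libraries, a log2 difference of -1.64 ± 0.15 (edgeR adjusted p = 2.9e-08). Phf5a, whose protein forms the drug pocket with SF3B1, and Sf3b3 had log2 differences of -0.86 and -0.82. Of 23 SR protein and hnRNP genes, 14 were lower and 2 higher (median -0.34), 1 higher without 2208L replicate 1. Srsf5 was higher, at 249 to 364 CPM in PyMT-M and 90.2 to 128 CPM in 2208L, a log2 difference of 1.49 ± 0.16 (edgeR adjusted p = 2.4e-07), and Ptbp1 and Hnrnpa1 were lower, with log2 differences of -0.80 and -0.76.

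BCL2 family genes, among them survival factors whose splicing responds to SF3B inhibitors, moved in both directions, with 5 of 13 higher (3 without 2208L replicate 3) and 4 lower. Mcl1, an antiapoptotic gene, had 41.7, 43.9, 38.5 and 33.9 CPM in the PyMT-M libraries and 68.99, 60.03 and 66.7 CPM in the 2208L libraries, a log2 difference of -0.72 ± 0.12 (edgeR adjusted p = 6.6e-05). The proapoptotic genes Bik and Bid moved in opposite directions, Bik with 28.7, 22.3, 15.4 and 28.5 CPM in the PyMT-M libraries and 2.01, 0.924 and 1.41 CPM in the 2208L libraries (4.04) and Bid at 7.49 to 10.6 CPM in PyMT-M and 34.002 to 39.3 CPM in 2208L (-1.99).

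The share of reads inside introns was 14.633%, 10.465%, 12.101% and 20.001% in the PyMT-M vehicle libraries and 7.901%, 10.072% and 10.427% in the 2208L libraries. The means were 14.3% ± 4.17 (SD, n = 4) and 9.47% ± 1.37 (SD, n = 3), and the 2-sided exact permutation test over 35 arrangements gave p = 0.0571, where the smallest possible is 0.0286. Every PyMT-M value lay above every 2208L value, though replicate 2 of PyMT-M exceeded the highest 2208L library by little. The difference of 4.83 percentage points was 2.93 without PyMT-M replicate 4. As a mean over genes of the share within each gene, the groups overlapped (19.3% to 32.8% in PyMT-M and 16.6% to 20.3% in 2208L, exact permutation p = 0.171). Introns were tested singly against the spliced reads of their gene if they averaged at least 5 intronic and 10 spliced reads. This average was over all 25 libraries, H3B-8800-treated ones included, so some introns may have entered through those. Introns of 1 library are not independent, so their counts do not add to the test over libraries. Of 52042 introns, 3569 (6.86%) were higher and 230 (0.442%) were lower, 7.3% in all, with a median log2 difference of 0.96. The called introns lay in 2531 and 198 of 9859 genes. This count depended on single libraries: it was 1812 without PyMT-M replicate 4, 7743 without PyMT-M replicate 2, and 498, 2017 and 1589 without 2208L replicates 1, 2 and 3.

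Among metabolic genes, hypoxia and glycolysis genes were lower in 9 and higher in 3 of 23 cases (median -0.43), 1 higher without 2208L replicate 1. Pgk1, a glycolytic enzyme, had 1266, 1404 and 2572 CPM in 2208L and 852, 466, 378 and 368 CPM in PyMT-M, a log2 difference of -1.76 ± 0.29 (edgeR adjusted p = 4.7e-05). Pfkp, P4ha1 and Ndrg1 were lower, with log2 differences of -2.48, -1.68 and -2.83, and 2208L replicate 3 was the highest library for all 4 genes. Car9, a carbonic anhydrase induced by hypoxia, went the other way (40.5 to 87.4 CPM in PyMT-M and 1.71 to 3.95 CPM in 2208L, a log2 difference of 4.34 ± 0.62 (edgeR adjusted p = 8.9e-06)). Of 23 sterol and fatty acid genes, 8 were higher and 2 lower (median 0.25), with 5 higher without 2208L replicate 1 and 0 or 1 lower without any 1 library. Srebf1, a transcription factor of lipid synthesis, was higher (567 to 921 CPM in PyMT-M and 216 to 324 CPM in 2208L, 1.41). Of 20 oxidative phosphorylation genes, 1 was higher and 2 were lower, and 0 or 1 were lower without PyMT-M replicate 1, 2 or 3 or 2208L replicate 1 or 3.

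Developmental pathways were mixed. In the Wnt list, 2 of 23 were higher and 6 lower (median -1.29). Without 2208L replicate 1, 4 were lower, and 9 were lower without 2208L replicate 3. Tcf7, Tcf7l1 and Wnt7b were lower, with log2 differences of -3.18, -1.98 and -3.68, and Rnf43, which removes Wnt receptors, was higher by 2.33. In the Notch list, 2 of 15 were higher and 3 lower, with 4 higher without 2208L replicate 2 and 1 without PyMT-M replicate 2 or 2208L replicate 1 or 3. Hey1, a Notch target, had 102, 85.4, 70.2 and 48.6 CPM in the PyMT-M libraries and 3.42, 4.198 and 3.42 CPM in the 2208L libraries, a log2 difference of 4.38 ± 0.38 (edgeR adjusted p = 1.7e-08), and Lfng and Jag1, a modifier and a ligand of the receptor, were lower, with log2 differences of -2.57 and -1.77.

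Chromosomes did not share 1 median. Genes of chromosome 14 had a median of 0.57, with 211 of 444 higher and 46 lower, and those of chromosomes 12, 4 and 17 had medians of 0.50, 0.36 and 0.33. Chromosome 6 had the lowest median, -0.27. The drug-treated pair gave 0.52, 0.37, 0.29, 0.25 and -0.38 for these chromosomes.

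The differences were then followed into tumors that the comparison had not used. In the H3B-8800-treated pair, 52.7% of genes were called, 26% higher and 26.7% lower in PyMT-M. Of the 3054 genes higher in vehicle tumors, 2385 were called higher again, which is 78.1% of the vehicle list and 70.6% of the drug list, and 16 were called lower. Of the 2862 lower genes, 2256 were called lower again (78.8% and 65.0%), and 5 were called higher. Of the p53 list, 17 were higher and 3 lower with the drug, and all 21 mitosis genes and 18 of 21 replication genes were lower. Neutrophil markers were lower in 14 of 19 cases. The difference between the pairs was called for 250 genes.

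AT3 over T11, with both treatment labels averaged, contrasts the same strains in other models. There 45.5% of genes were called, 21.6% higher and 23.9% lower. Of the genes higher in PyMT-M over 2208L, 894 were higher (29.3% of that list and 31.9% of the AT3 list) and 643 were lower (21.1%). Of those lower, 826 were lower (28.9% and 26.5%) and 573 were higher (20.02%). Of the lists, 7 of 27 p53 genes were higher and 8 lower, 2 of 21 mitosis genes were higher and 2 lower, and 14 of 19 neutrophil markers were higher in AT3. Cdkn1a stood at 4.28 to 6.31 CPM in the AT3 vehicle libraries and 3.43 to 5.05 CPM in those of T11.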

How the data were processed

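Poly(A) RNA from 25 transplanted mouse mammary tumors was sequenced, and the 4 PyMT-M and 3 2208L vehicle libraries were the groups compared. Per the submitters' processing notes, HISAT2 2.0.4 and the builds mm10 and hg38 were used. The authors deposited, for each library and intron, read counts (reads inside the intron, and reads overlapping it with the spliced ones included) and RPKM values. The deposited RPKM values were used only to check library totals. Spliced reads were the difference of the deposited counts, summed over the introns of a gene, so genes without introns were not measured. This sum counts a read once for each intron it spans.

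Genes that reached a CPM of 1 in 2 or more libraries were fitted with edgeR 4.0.16 (R 4.3.3, limma 3.58.1, TMM, quasi-likelihood test, means of the 8 model and treatment groups) with Benjamini-Hochberg adjustment at 0.05. DESeq2 1.42.0 was an alternative, and tables were made in Python 3.11.15. Introns were tested with the same kind of fit on the reads inside an intron, with the log of the spliced reads of the whole gene as offset. The edgeR fit of genes was tested on simulated data, and the fit of introns was not. Named genes were the 15 with the largest called change in each direction (a mean of 5 CPM or more where higher, no overlap), up to 6 genes with the smallest adjusted p in each list, and fixed markers. Csn1s1, Csn2, Mfge8, Lcn2, Cdc20, Rfc3 and the genes around Met were chosen after their values were seen. The members and gene lists were chosen with earlier results of these data known. Same-numbered libraries did not deviate together (correlations -0.043, -0.034 and 0.057 for numbers 1, 2 and 3), so numbers were not used as pairs. Depth was 9820825 to 15113764 spliced reads per library, and counting intervals cover counting error only.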

Additional observations from a re-analysis of the deposited data

Results flagged for a closer look

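Single libraries stood apart from the other 3 PyMT-M vehicle libraries for 19 of 191 quantities tested. The rule marks about 1 in 20 groups of independent values with a normal spread. These CPM values need not be either, so the count is a description only. PyMT-M replicate 3 was high for Mup5 (45710.0 CPM, others 2302 to 5305), Mup19 (17550.0 CPM, others 1.89 to 2322), Pip (5275 CPM, others 213.6 to 494.2), Prol1 (888.6 CPM, others 15.5 to 115.7) and Mup4 (314.5 CPM, others 13.5 to 51.3), and its share of spliced reads from Mup, Scgb and Dcpp genes was 11.58% (others 1.02% to 2.25%). The same library was low for Sf3b3 (190.7 CPM), Mcm4 (47.12 CPM) and Tcf7l1 (8.049 CPM). Replicate 2 was high for Krt5 (138.5 CPM), Ccnd1 (141.4 CPM), and, at 1 read each, H2-Ea-ps and Myoz1 (0.06835 CPM). Replicate 1 was high for Ccl2 (3.836 CPM) and Il1r2 (0.9134 CPM). Replicate 4 was high for Srebf1 (920.5 CPM), Rpl21 (567.0 CPM) and, at 1 read, Fam150b (0.08644 CPM), and low for Oasl1 (2.853 CPM).

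The difference between the models itself differed between drug-treated and vehicle tumors for 8 named genes, by the edgeR interaction term adjusted over all genes. Fgg differed by -11.25 with vehicle and -4.28 with the drug, a change of 6.97 ± 1.52 (edgeR adjusted p = 0.0263). Hdc went from -4.30 to -1.64, a change of 2.66 ± 0.68 (edgeR adjusted p = 0.0458), and Mertk from 1.97 to -0.62, a change of -2.59 ± 0.62 (edgeR adjusted p = 0.0366). The changes were 2.09 ± 0.52 (edgeR adjusted p = 0.0446) for Aass, 1.56 ± 0.35 (edgeR adjusted p = 0.023) for Prom1, 1.01 ± 0.21 (edgeR adjusted p = 0.0154) for St7, -1.44 ± 0.28 (edgeR adjusted p = 0.00871) for Bid and -0.83 ± 0.21 (edgeR adjusted p = 0.0494) for Srsf5.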

How the results depend on the processing

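The number of genes called between the vehicle groups, 5916, was 5296 to 6310 under the alternatives of normalization, filter, tool, samples in the fit and gene count, and 4951 to 5673 without any 1 library. Tested against a log2 change of 1 with edgeR's glmTreat it was 1845, since that test asks for a larger change. The number of introns called, 3799, was 610 in a fit of the 7 libraries alone and 498 to 7743 without any 1 library, and the cause was not tested. With the replicate number as a block in a fit of the 7 libraries alone, 5606 genes and 222 introns were called, and among 189 named genes 8 lost and 4 gained a call, although the numbers do not pair the tumors. Of the named genes, 126 kept direction and call in every setting, and 22 lost the call in a setting other than glmTreat. In the 7 libraries alone these were Cdkn2a, Lyz2, Mup19, Robo4, Scgb2b24 and Tspan12, and with the median over introns BC048546, Cpa1, Fam71f1, Flnc, Mki67, Mup19, Myoz1 and Scgb2b24.

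Some genes without a call turned direction. Without any 1 library, the log2 difference of Adgre1 was -0.778 to 0.623, of Csf1r -0.952 to 0.294, of Csf1 -0.272 to 0.119, of Krt18 -0.024 to 0.318, of Vim -0.202 to 0.049, of Aass -0.328 to 0.196, of Csn1s1 -0.158 to 0.161 and of Rfc3 -0.223 to 0.007. Vim was at 0.073 with the median over introns as the gene count, Aass at -0.013 with library totals and -0.001 in the 7 libraries alone, and Adgre1 at 0.224 with the replicate block. Csn1s1, at 0.004 as reported, was at -0.006 without the filter, -0.013 with library totals, -0.02 in the 7 libraries alone, -0.213 with the replicate block and -0.131 with the median over introns. The cause was not tested. Model and host strain cannot be told apart, 3 or 4 tumors of 1 line stand for each model, and genes with few reads, such as the chemokines, are limited by depth.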
